A study of Mus musculus with 14 samples.

Results

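The difference between wild-type and Clk3 knockout hearts in their response to pressure overload was measured in all 14 of the 14 heart RNA sequencing libraries of the series. Each library was placed in 1 of 4 groups by its labelled genotype and surgery: 4 wild-type sham, 2 wild-type TAC, 4 Clk3 KO sham and 4 Clk3 KO TAC libraries. The comparison was the TAC effect in knockout (TAC over sham) minus the TAC effect in wild type, so a value below 0 is a smaller rise, or a deeper fall, in knockout hearts. All mice were of the C57BL/6J background and the tissue was heart. The labels gave an age of 11 weeks for replicates 1 and 2 of each sham group and of 10 weeks for the other 10 libraries, so every TAC library came from the younger age. The labels named no sex, no time after surgery and no construction of the knockout allele, and did not say whether the libraries came from separate animals. The p-values therefore measure the spread between these libraries. The replicate numbers only name libraries and do not pair them.

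Transverse aortic constriction (TAC) narrows the aorta and loads the left ventricle with pressure. Heart muscle cells answer by growing and by switching on genes of stretch and of fetal heart, while fibroblasts lay down matrix and the muscle lowers its genes for fat burning and ion currents. CLK3 belongs to the CDC2-like kinases, which phosphorylate the serine- and arginine-rich (SR) proteins that steer splicing. A response that is smaller, kept or larger in the knockout is read here from the difference between the genotypes' TAC effects, each fitted from its own sham and TAC libraries.

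The gene counts of the libraries ran from 11385818 to 20369637 reads. Reads outside annotated features made up 14.3 to 17.6% in wild-type sham, 17.1 to 19.0% in knockout sham, 10.7 and 14.9% in wild-type TAC and 12.3 to 14.3% in knockout TAC libraries. Pairs of libraries within a group differed by at least 3.21 times the chi-square that counting alone gives per degree of freedom, so none was taken as a repeat of another. Markers of heart muscle summed to 38810 to 50250 CPM in every library. The library labelled wild-type TAC 1 goes against its label in 4 genes. The pseudogene Gm8730 was at 66.8 CPM (gene counts scaled to the library's size) there, against 57.4 to 67.1 CPM in the 8 knockout libraries and 1.26 to 1.63 CPM in the remaining 5 libraries of that genotype. Pseudogenes Gm14165 (6.98 CPM) and Gm9625 (20.3 CPM) followed the same pattern (pseudogenes can take reads from their parent genes), and Clk3 itself stood at 54.2 CPM, within the range of 50.8 to 64.9 CPM of the knockout TAC libraries, where wild-type TAC 2 had 92.3 CPM. Clk3 reads were still counted in every knockout library. Sham levels were 62.8 to 67.4 CPM in knockout and 73.15 to 96.0 CPM in wild type. The genotype difference in Clk3 did not pass the threshold in sham (log2 -0.37, edgeR adjusted p = 0.158) or under TAC (-0.34, adjusted p = 0.35). The library labelled wild-type TAC 1 was kept in the group its label gives, and most differences are also given without it. Without it the wild-type TAC group is 1 library, wild-type TAC 2, assumed to vary like the other groups. In the clock gene Arntl, knockout sham 4 and knockout TAC 3 departed from the rest of their groups, at 24.3 CPM against 4.40 to 5.50 CPM and at 9.02 CPM against 22.1 to 23.2 CPM.

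For nearly all genes called in 1 genotype, the other genotype's TAC effect had the same direction, while the number called depended on the libraries and covariates. By edgeR's quasi-likelihood test with Benjamini-Hochberg adjustment, at an adjusted p under 0.05, 1912 of 15651 genes (12.2%) changed in wild type, 1082 higher (6.91%) and 830 lower (5.3%). In knockout 2033 genes (13.0%) changed, 1053 higher (6.73%) and 980 lower (6.26%). Of the genes called in knockout, 1971 (96.95%) had an effect of the same sign in wild type, and of those called in wild type, 1867 (97.65%) had the same sign in knockout. The 965 genes called in both were 50.5% of the wild-type calls and 47.5% of the knockout calls, and every one of them moved in the same direction, 544 up and 421 down. These effects share no library. The wild-type calls fell to 512 genes when the library labelled wild-type TAC 1 was left out, and the knockout calls to 797 without knockout sham 2. With age as a covariate there were 1158 calls in wild type and 588 in knockout, and with the 10-week libraries alone 938 and 15.

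Few genes differed in their response by more than the spread between libraries. The difference itself passed an adjusted p of 0.05 in 3 of 15651 genes (0.0192%), and all 3 were raised less in knockout: Ddah1, Ppm1e and Postn. At an unadjusted p under 0.05 there were 1022 genes (6.53%), 470 above 0 (3.0%) and 552 below 0 (3.53%). By these rules 3 responses were blunted in knockout, 0 were larger and 0 ran in opposite directions. With age as a covariate, and with the 10-week libraries alone, edgeR called 0 genes for the difference and 0 as blunted (973 and 904 genes at an unadjusted p under 0.05). The sham groups of both genotypes had the same ages, and the part of age was not tested. Over the 26 alternative fits the difference ran from -1.10 to -0.93 for Ddah1, -1.29 to -1.03 for Ppm1e and -2.23 to -1.38 for Postn. A response was called kept when both effects passed the threshold in 1 direction and the 95% interval of the difference lay within 1.5-fold, which held for 442 genes (2.82% of all genes tested), 266 of them raised and 176 lowered. For the other 2535 of the 2980 genes called in either genotype the data did not settle the difference, whose median 95% half-width over all genes was 0.42 on the log2 scale (1.34-fold). The DESeq2 Wald test called 37 genes, 26 below 0 and 11 above. Leaving out 1 library at a time gave 0 to 32 genes and 0 genes for 8 of the 14 libraries. Without the library labelled wild-type TAC 1 only Loxl3 passed, and without wild-type TAC 2 there were 32 genes, among them Ddah1 and Postn.

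The typical size of the knockout response against the wild-type response depended on which genotype's calls chose the genes. Over the 1912 genes called in wild type, the median ratio of the knockout to the wild-type log2 effect was 0.571, and 91.95% had the smaller effect in knockout. Over the 2033 genes called in knockout it was 1.03, and 44.3% had the smaller effect in knockout. A gene chosen for a large effect in 1 genotype has that effect overstated, so these values pull in opposite directions. The 965 genes called in both gave 0.758. Without the library labelled wild-type TAC 1, the ratio was 0.584 over wild-type calls and 1.12 over knockout calls. The median difference over all genes was -0.0042 on the log2 scale.

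**Figure D1:**
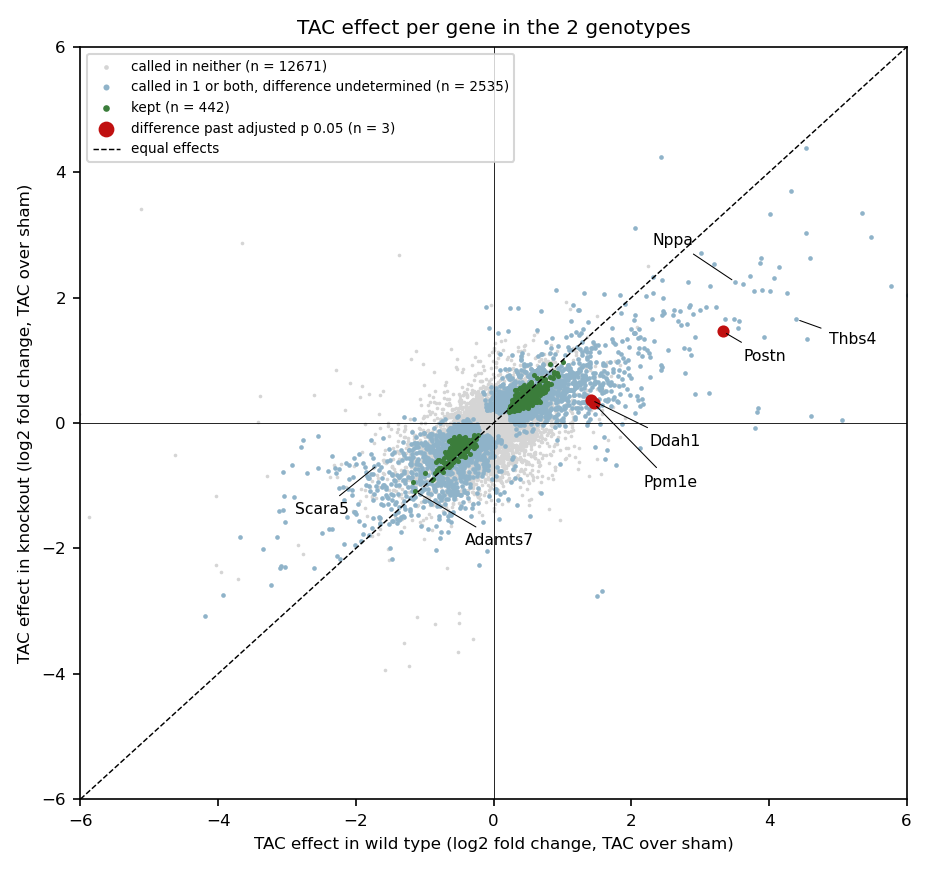
Each point is 1 of 15651 genes, placed by its log2 TAC effect in wild type (x axis) and in knockout (y axis); 7 genes lie outside the plotted range. Green points are the 442 kept responses near the line of equal effects, red points the 3 genes whose difference passed the threshold, all below the line, and blue points the 2535 genes with an undetermined difference.

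The 3 blunted genes have unlike roles. Ddah1 encodes an enzyme that breaks down asymmetric dimethylarginine, an inhibitor of nitric oxide synthesis. Ppm1e encodes a protein phosphatase that acts on calmodulin-dependent and p21-activated kinases. Postn encodes periostin, a matricellular protein secreted by activated fibroblasts. On GRCm38 they lie at chr3:145758675-145894277 on the plus strand, chr11:87226906-87359023 on the minus strand and chr3:54361109-54391037 on the plus strand. Their promoters (250 bases before to 50 after the RefSeq start, GRCm38.p6) are shown because these genes moved together, to let a reader compare the letters at their starts. They cover chr3:145758442-145758741 on the plus strand, chr11:87358945-87359244 on the minus strand and chr3:54360857-54361156 on the plus strand, and of the 2 Postn promoters in the table the one nearest the annotated gene start is printed. Capitals mark TATAAA, the core promoter box bound by TBP, in Postn. In Ppm1e they mark GGGCGG, the box bound by Sp1 factors, read here from the opposite strand.
Ddah1: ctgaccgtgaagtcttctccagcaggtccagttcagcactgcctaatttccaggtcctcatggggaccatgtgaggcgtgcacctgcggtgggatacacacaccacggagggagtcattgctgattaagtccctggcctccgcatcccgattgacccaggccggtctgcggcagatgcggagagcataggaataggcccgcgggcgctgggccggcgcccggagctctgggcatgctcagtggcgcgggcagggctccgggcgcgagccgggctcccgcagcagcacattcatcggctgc
Ppm1e: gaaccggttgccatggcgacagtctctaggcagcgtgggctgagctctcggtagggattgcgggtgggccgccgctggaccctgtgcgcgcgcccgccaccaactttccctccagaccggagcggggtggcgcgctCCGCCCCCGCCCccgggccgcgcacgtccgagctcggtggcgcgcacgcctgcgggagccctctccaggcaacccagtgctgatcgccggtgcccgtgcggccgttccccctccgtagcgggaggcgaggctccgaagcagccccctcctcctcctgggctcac
Postn: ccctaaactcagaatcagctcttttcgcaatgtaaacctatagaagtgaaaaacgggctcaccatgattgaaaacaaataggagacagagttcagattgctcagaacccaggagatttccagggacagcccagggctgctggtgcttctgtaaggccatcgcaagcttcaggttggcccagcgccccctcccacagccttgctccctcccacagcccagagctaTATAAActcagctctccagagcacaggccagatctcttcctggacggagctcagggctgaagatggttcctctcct
The motifs were searched on both strands, and these 2 were added after the sequences were seen. Postn holds 1 TATAAA, which starts at position -26, and 13.6% of 32851 RefSeq promoters of this length hold one. Ppm1e holds 2 adjoining Sp1 boxes at -114 and -108, a motif that 35.7% of promoters hold. The bases G and C made up 65.7% of the Ddah1, 74.3% of the Ppm1e and 53.0% of the Postn promoter (median of all promoters 52.7%), with 23, 36 and 5 CG pairs (median 7). None of the 3 windows held TGANTCA, the site of AP-1 factors, which occurs in 7.81% of promoters. Nor did they hold CATTCC, the site of TEAD factors (14.7%), or a CArG box (1.63%), which says only that these letters are not in these windows.

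Ddah1 rose in both genotypes and rose less in knockout. It was at 6.56, 7.25, 7.88 and 6.74 CPM in wild-type sham, 19.3 and 18.7 CPM in wild-type TAC, 8.95, 7.81, 7.04 and 8.04 CPM in knockout sham, and 9.79, 10.1, 10.3 and 10.9 CPM in knockout TAC libraries. The sham groups overlapped, and all 4 knockout TAC libraries lay below both wild-type TAC libraries. TAC raised it 2.67-fold in wild type (log2 1.42 ± 0.11, SE) and 1.29-fold in knockout (0.37 ± 0.10), and the difference was -1.04 ± 0.15 (edgeR quasi-likelihood test, adjusted p = 0.0403). Leaving out the library labelled wild-type TAC 1 gave -1.02 (adjusted p = 0.164).

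Ppm1e differed between the genotypes already without TAC. Wild-type sham libraries had 15.9, 18.5, 17.3 and 19.5 CPM and knockout sham libraries 27.5, 27.1, 34.5 and 23.2 CPM, without overlap (log2 difference 0.65, edgeR adjusted p = 0.0203). Under TAC, wild-type libraries reached 46.4 and 51.5 CPM and knockout libraries 32.5, 35.0, 40.0 and 32.0 CPM. It rose 2.74-fold in wild type (log2 1.46 ± 0.13), while the knockout effect of 0.31 ± 0.11 did not pass the threshold (edgeR adjusted p = 0.0756). The difference of -1.14 ± 0.17 (edgeR adjusted p = 0.0403) therefore joins a higher sham level and a lower TAC level in knockout. It was -1.21 without the library labelled wild-type TAC 1 (adjusted p = 0.112).

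Postn carried the largest of these differences. Sham levels overlapped at 55.3 to 91.0 CPM in wild type and 57.4 to 72.0 CPM in knockout. Wild-type TAC libraries reached 879 and 487 CPM and knockout TAC libraries 156, 158, 188 and 227 CPM, the higher wild-type value being that of the library labelled wild-type TAC 1. Wild-type Postn rose 10.1-fold (log2 3.33 ± 0.22) and knockout Postn 2.75-fold (1.46 ± 0.19), a difference of -1.87 ± 0.29 (edgeR adjusted p = 0.0403). Without the library labelled wild-type TAC 1 it was -1.38 (adjusted p = 0.289), and without wild-type TAC 2 it was -2.23 (adjusted p = 0.00176). Over the 26 alternative fits, Ddah1 passed the threshold in 10, Ppm1e in 11 and Postn in 10, always with a smaller rise in knockout.

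Just outside the threshold stood Loxl3 and Slc22a4, each at an edgeR adjusted p of 0.0553. Loxl3, a lysyl oxidase-like enzyme that crosslinks collagen, was at 9.60, 9.11, 9.69 and 9.11 CPM in wild-type sham, 23.4 and 35.9 CPM in wild-type TAC, 7.43, 7.198, 7.82 and 8.62 CPM in knockout sham and 10.3, 8.18, 11.6 and 10.2 CPM in knockout TAC. The knockout TAC libraries thus lay close to the sham range, and wild-type TAC 2 was the highest. Its difference was -1.28 ± 0.21, and it passed without the library labelled wild-type TAC 1 (-1.55, edgeR adjusted p = 0.00978). Slc22a4, an organic cation transporter, rose in wild type (6.68 to 9.49 CPM in sham, 14.2 and 17.0 in TAC). In knockout it was at 10.2 to 12.1 CPM in sham and 8.32 to 10.8 CPM in TAC libraries, which overlapped, and the difference was -1.18 ± 0.19 (-1.30 without the library labelled wild-type TAC 1). Scara5, a scavenger receptor that marks fibroblasts, was the gene of smallest p above 0. It fell 3.19-fold in wild type, from 43.0 to 52.3 CPM to 12.3 and 18 CPM, and 1.58-fold in knockout, from 37.2 to 44.1 CPM to 22.5 to 28.4 CPM, a difference of 1.01 ± 0.18 (edgeR adjusted p = 0.108, and 0.77 without the library labelled wild-type TAC 1).

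**Figure D2:**
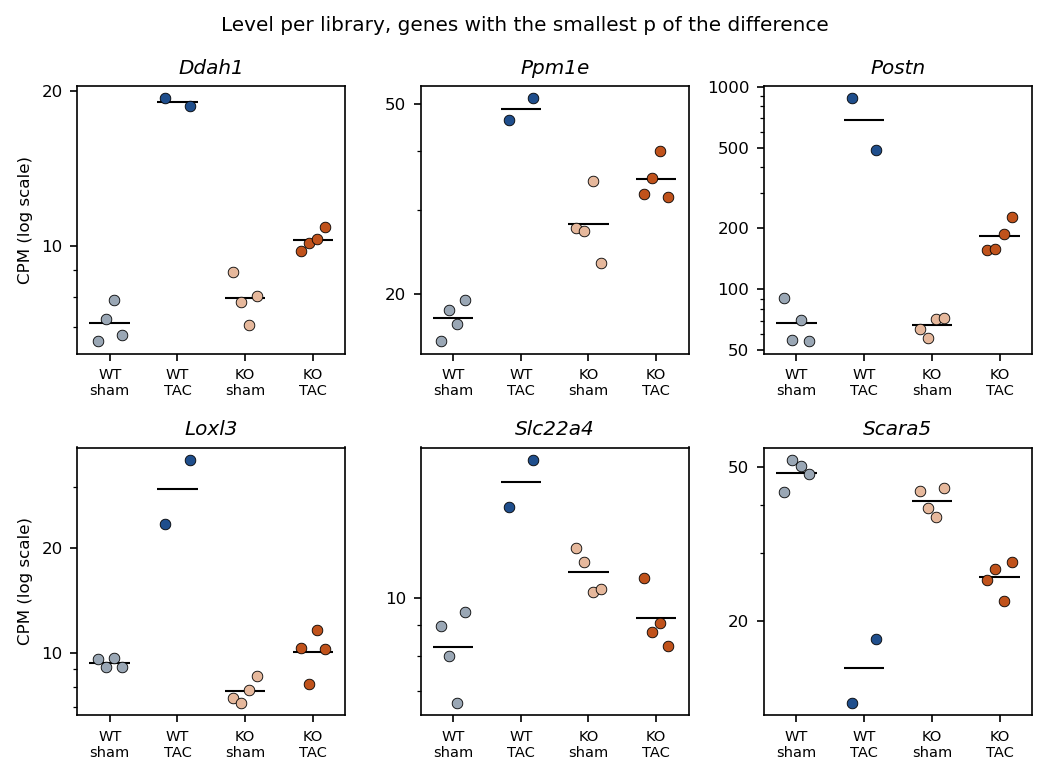
CPM (log axis) of 6 genes in each of the 14 libraries by group, with 1 point per library and a bar at the group mean. All 4 knockout TAC points lie below both wild-type TAC points in each panel but Scara5, where they lie above both.

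Nppa and Myh7, which mark the load on heart muscle, rose in both genotypes, and every knockout TAC library lay below both wild-type TAC libraries. Nppa, which encodes atrial natriuretic peptide, was at 104, 139, 192 and 217 CPM in wild-type sham, 1912 and 1808 CPM in wild-type TAC, 195, 162, 235 and 118 CPM in knockout sham, and 909, 640, 1119 and 710 CPM in knockout TAC. Sham groups overlapped, and every knockout TAC library was below both wild-type TAC libraries. It rose 11.4-fold in wild type and 4.75-fold in knockout. The difference of -1.26 ± 0.36 did not pass the threshold (edgeR adjusted p = 0.427), but knockout TAC against wild-type TAC did (-1.14, adjusted p = 0.0478). Leaving out the library labelled wild-type TAC 1 gave -1.22. Myh7, the beta myosin heavy chain of fetal and failing heart, spread from 121 to 637 CPM in wild-type and from 292 to 743 CPM in knockout sham libraries. Under TAC, wild-type libraries reached 4684 and 5736 CPM and knockout libraries 3063, 1725, 1454 and 1427 CPM, which again did not overlap. Its rise was 13.7-fold in wild type and 4.30-fold in knockout, with a difference of -1.67 ± 0.61 (95% interval -2.96 to -0.38, edgeR adjusted p = 0.629, and -1.81 without the library labelled wild-type TAC 1).

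Other genes of the fetal programme did not share this pattern. Nppb, which encodes brain natriuretic peptide, was at 691 and 649 CPM in wild-type TAC and 864, 532, 382 and 507 CPM in knockout TAC libraries, which overlapped, with a difference of -0.50 ± 0.38 (-0.45 without the library labelled wild-type TAC 1). Acta1, skeletal alpha-actin, was at 3326 and 1265 CPM in wild-type TAC and 1618, 1365, 296 and 1524 CPM in knockout TAC libraries, the low value being that of knockout TAC 3. Its difference was -0.17 ± 0.69, and 0.69 without the library labelled wild-type TAC 1. Myh6, which encodes the myosin heavy chain of adult heart, was at 9545 and 13500 CPM in wild-type TAC and 11210 to 15160 CPM in knockout TAC, passed the threshold in neither genotype, and is close enough to Myh7 in sequence that reads may be shared. Of 10 genes of this programme tested, 4 rose and 1 fell in wild type (6.91% and 5.3% of all genes). In knockout 5 rose (6.73%). The difference was below 0 in 6 of them (50.8% of all genes), with a median of -0.16 (-0.13 without the library labelled wild-type TAC 1). The medians of the effects themselves went the other way, at 0.48 in wild type and 0.55 in knockout. Nppa also marks atria. The atrial light chain Myl7 was at or below 1.02 CPM and Sln at or below 0.547 CPM in every library, while Myl4, also an atrial light chain, was at 2.01 to 2.79 CPM in wild-type sham, 3.70 and 3.84 CPM in wild-type TAC, 2.19 to 3.37 CPM in knockout sham and 1.89 to 4.78 CPM in knockout TAC. The 11 atrial markers besides Nppa summed to 102 to 130 CPM in wild-type TAC and 119 to 154 CPM in knockout TAC. The part of atrial tissue in the Nppa values was not tested.

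Stretch and Z-disc responders, which sense and buffer strain at the sarcomere, had a difference below 0 in 18 of 20 genes (50.8% of all genes). In wild type 15 rose and 0 fell (6.91% and 5.3% of all genes). In knockout 10 rose and 1 fell (6.73% and 6.26%). The difference was above 0 in 49.2% of all genes, and these shares apply to the counts of every list below. Their median effect was 0.61 in wild type and 0.36 in knockout, with a median difference of -0.22 (-0.13 without the library labelled wild-type TAC 1). Ankrd1, a titin-bound strain sensor, was at 3908 and 3973 CPM in wild-type TAC and 2891, 2424, 2176 and 2735 CPM in knockout TAC libraries, while sham libraries of both genotypes lay between 1042 and 1478 CPM. The wild-type TAC libraries were both above all knockout TAC libraries, and the difference was -0.71 ± 0.18 (edgeR adjusted p = 0.321, and -0.72 without the library labelled wild-type TAC 1). Xirp2 and Fhl1, both actin- or titin-associated proteins, leaned on that library. Xirp2 was at 7846 CPM there and at 3625 CPM in wild-type TAC 2, against 3423, 3618, 2030 and 3343 CPM in knockout TAC. Its difference of -1.28 ± 0.31 became -0.61 without the library labelled wild-type TAC 1. Fhl1 was at 551 and 229 CPM in wild-type TAC and 164 to 219 CPM in knockout TAC, and its difference of -0.94 ± 0.29 became -0.17.

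**Figure D3:**
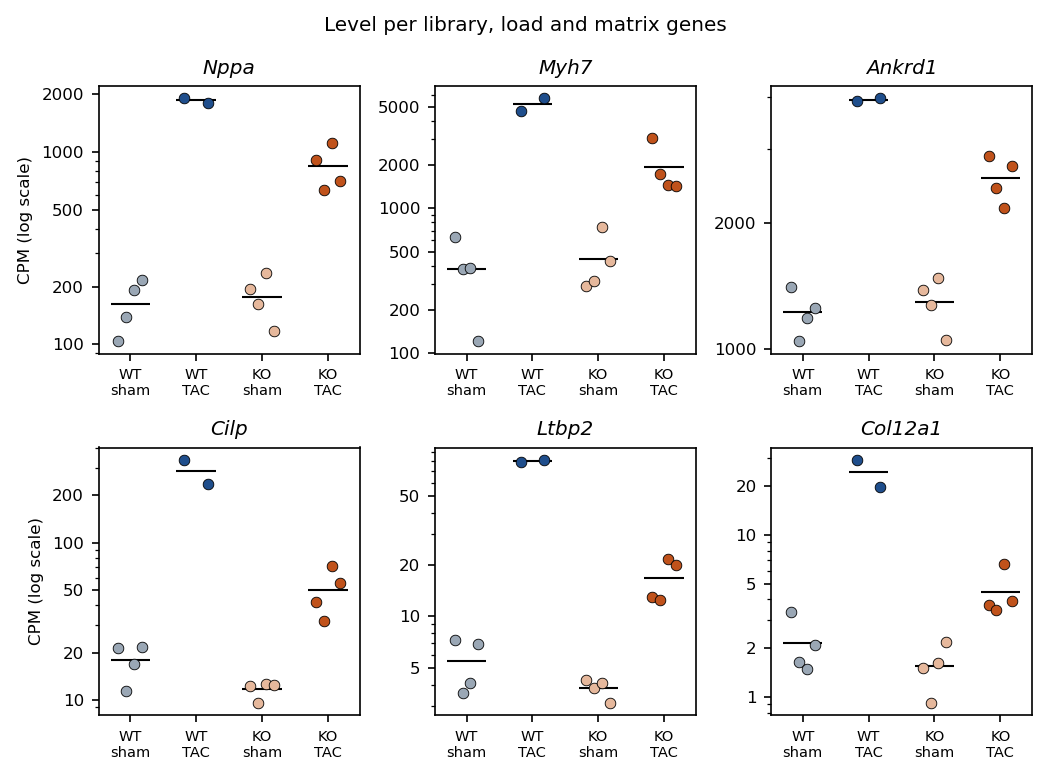
CPM (log axis) of 3 load genes (top) and 3 matrix genes (bottom) in each library by group, with a bar at the group mean. All 4 knockout TAC points lie above every knockout sham point and below both wild-type TAC points in each panel.

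Lists of matrix genes were among those with the lowest median differences, and more of their members rose than fell in each genotype. Of 25 matricellular genes, which signal between matrix and cells, 17 rose and 1 fell in wild type and 10 rose and 1 fell in knockout. Their median effect was 1.56 in wild type and 0.80 in knockout on the log2 scale. The difference was below 0 in 19 of 25 genes with a median of -0.65, or -0.33 without the library labelled wild-type TAC 1. As a mean over the list, each library's level relative to its own genotype's sham mean was 1.43 and 1.55 in the wild-type TAC libraries and 0.52 to 0.96 in the knockout TAC libraries, without overlap. In 13 of the 25 genes all 4 knockout TAC libraries lay below both wild-type TAC libraries. That pattern held for 10.8% of all genes and for 627 of the 1082 genes raised in wild type. Those 1082 genes were called with the same wild-type TAC libraries. The list's knockout minus wild-type difference had a median of -0.24 in sham and -0.75 under TAC. In bulk tissue, fewer cells of a type and less RNA per cell cannot be told apart.

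Among them Cilp, an antagonist of TGF-beta 1 found in cartilage and scar, was at 11.3 to 21.8 CPM in wild-type sham and 9.57 to 12.7 CPM in knockout sham. Wild-type TAC libraries had 337 and 235 CPM and knockout TAC libraries 41.9, 31.7, 71.1 and 55.5 CPM. The groups of TAC libraries were far apart, with a rise of 16.1-fold against 4.28-fold and a difference of -1.91 ± 0.36 (edgeR adjusted p = 0.162, or 0.639 at -1.63 without the library labelled wild-type TAC 1). Thbs4, a thrombospondin of stressed heart, reached 185 and 99.9 CPM in wild-type TAC against 17.3, 10.9, 36.6 and 16.4 CPM in knockout TAC. Its difference of -2.73 ± 0.60 had a 95% interval from -4.00 to -1.46 (edgeR adjusted p = 0.225, and -2.22 without the library labelled wild-type TAC 1).

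Collagens followed with smaller medians. Of 26 genes for fibrillar collagens and their chaperones, 15 rose and 1 fell in wild type (6.91% and 5.3% of all genes). In knockout 14 rose and 1 fell (6.73% and 6.26%), and the difference was below 0 in 22 (50.8%). In 18 of the 26 all 4 knockout TAC libraries lay below both wild-type TAC libraries (10.8% of all genes). The list's knockout minus wild-type difference had a median of -0.18 in sham and -0.42 under TAC. The median effect was 0.55 in wild type and 0.42 in knockout, and the median difference -0.29 (-0.25 without the library labelled wild-type TAC 1). Col1a2, a chain of collagen I, was at 201, 204, 204 and 228 CPM in wild-type sham and at 169, 149, 144 and 166 CPM in knockout sham. It reached 632 and 524 CPM in wild-type TAC and 248.5, 230, 252 and 318 CPM in knockout TAC, so the knockout libraries were lower in both surgeries. It rose 2.76-fold and 1.67-fold, with a difference of -0.73 ± 0.15 (edgeR adjusted p = 0.225). Col3a1 and Col5a2, chains of collagens III and V, had differences of -0.78 ± 0.22 and -0.93 ± 0.20. These were -0.63 and -0.55 without the library labelled wild-type TAC 1.

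Non-fibrillar collagens, which join fibrils to each other and build basement membranes, had a median effect of 0.98 in wild type and 0.66 in knockout. Of 17 tested, 14 rose and 1 fell in wild type (6.91% and 5.3% of all genes). In knockout 12 rose and 1 fell (6.73% and 6.26%), and the difference was below 0 in 14 (50.8%). Its median was -0.41 (-0.25 without the library labelled wild-type TAC 1). The knockout sham libraries were already lower, by a median of 0.37 on the log2 scale. Col12a1, which coats collagen fibrils, was at 1.48 to 3.36 CPM in wild-type sham and 0.919 to 2.19 CPM in knockout sham, and at 29.2 and 19.9 against 3.69, 3.45, 6.63 and 3.90 CPM under TAC. Both wild-type TAC libraries were above every knockout TAC library, and the difference was -2.04 ± 0.44 (edgeR adjusted p = 0.225, and -1.74 without the library labelled wild-type TAC 1). Col8a1, a short-chain collagen, turned more on 1 library: it reached 384 CPM for the library labelled wild-type TAC 1 and 158 CPM in wild-type TAC 2, against 75.2 to 130 CPM in knockout TAC. Its difference of -1.37 ± 0.34 became -0.59 without that library.

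Elastic fibre and crosslinking genes gave the highest share of genes without overlap among the matrix lists. In 15 of 19 all 4 knockout TAC libraries lay below both wild-type TAC libraries (10.8% of all genes). The list's knockout minus wild-type difference had a median of -0.30 in sham and -0.90 under TAC. In wild type 13 rose and 2 fell, in knockout 11 rose and 2 fell, and the median difference was -0.41 (-0.25 without the library labelled wild-type TAC 1). Lox, the main lysyl oxidase, was at 51.7 and 37.4 CPM in wild-type TAC and 17.2, 11.8, 18.8 and 20.5 CPM in knockout TAC, with a rise of 4.85-fold and 2.08-fold. Mfap5, a microfibril protein, rose 4.33-fold and 2.30-fold. Their differences of -1.22 and -0.91 became -0.97 and -0.55 without the library labelled wild-type TAC 1. Small leucine-rich proteoglycans, which space collagen fibrils, had a median difference of -0.41 over 10 genes (-0.20 without the library labelled wild-type TAC 1). Of these 5 rose in wild type and 3 in knockout, and none fell in either. Aspn, one of them, was at 176 and 120 CPM in wild-type TAC and at 61.0 to 82.8 CPM in knockout TAC.

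The TGF-beta family gave mixed values. Of its members, whose ligands drive fibroblast activation, 9 of 29 genes rose and 2 fell in wild type, 7 rose and 1 fell in knockout, and the median difference was -0.10. Leaving out the library labelled wild-type TAC 1 turned it to 0.06. In 11 of the 29 genes all 4 knockout TAC libraries lay below both wild-type TAC libraries (10.8% of all genes), and in 0 above both (11.0%). The list's knockout minus wild-type difference had a median of -0.24 in sham and -0.17 under TAC, so knockout was lower already without TAC. The list's mean level relative to sham was 0.47 and 0.37 in the wild-type TAC libraries and 0.25 to 0.36 in the knockout TAC libraries. Ltbp2, a microfibril protein related to the carriers of latent TGF-beta, was at 79.3 and 81.5 CPM in wild-type TAC and 12.9, 12.5, 21.5 and 19.8 CPM in knockout TAC. Sham libraries of both genotypes lay between 3.14 and 7.26 CPM. Its rise was 14.9-fold against 4.37-fold, and the difference was -1.77 ± 0.34 (edgeR adjusted p = 0.183), close to the -1.79 without the library labelled wild-type TAC 1. The ligand Tgfb2 was at 59.8 and 45.1 CPM in wild-type TAC and 22.6 to 27.6 CPM in knockout TAC, and Tgfb3 at 47.7 and 51.4 against 26.1 to 33.0 CPM. Neither overlapped, and their differences were -0.87 ± 0.19 and -0.62 ± 0.17 (-0.65 and -0.67 without the library labelled wild-type TAC 1). Igf1, a growth factor for muscle, was at 74.2 and 43.4 CPM in wild-type TAC and 26.2, 26.8, 29.6 and 38.9 CPM in knockout TAC, within reach of its sham range of 22.7 to 31.2 CPM. It rose in wild type alone by the threshold, and the difference was -1.05 ± 0.25 (edgeR adjusted p = 0.298, and -0.61 without the library labelled wild-type TAC 1).

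**Figure D4:**
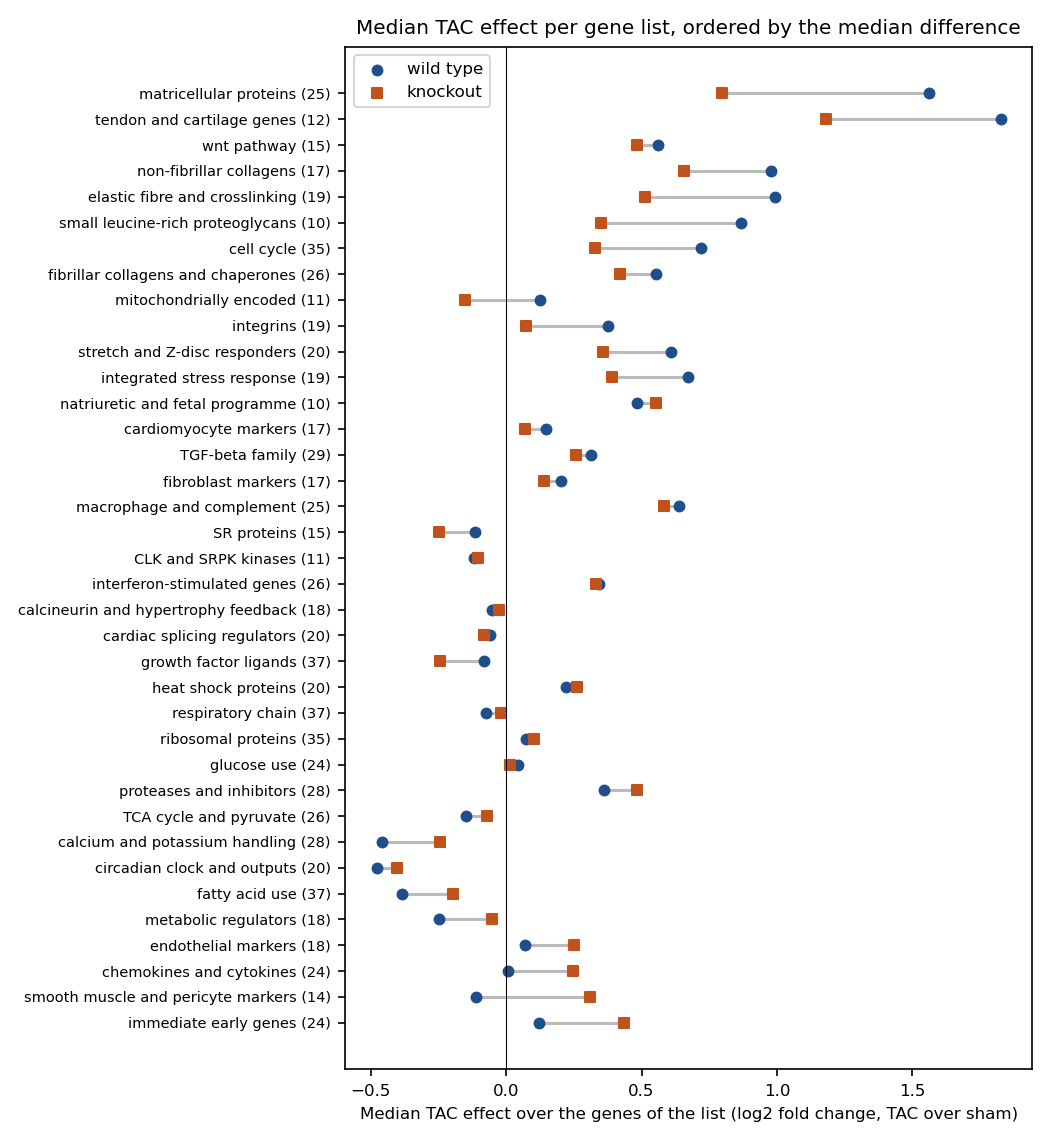
Median log2 TAC effect in wild type (circles) and knockout (squares) for each gene list with at least 10 genes tested, ordered by the median difference, with the number of genes in parentheses. Matricellular genes show 1.56 against 0.80, fatty acid genes -0.38 against -0.20, and macrophage genes 0.64 against 0.58.

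Markers of the cells that make these genes were measured alongside. Of 17 fibroblast markers, 5 rose and 1 fell in each genotype, and the median difference was -0.10 (-0.07 without the library labelled wild-type TAC 1). Their summed level was 2151 to 2529 CPM in wild-type sham, 1808 to 2181 CPM in knockout sham, 2481 and 2663 CPM in wild-type TAC, and 2134 to 2421 CPM in knockout TAC. The lineage factor Tcf21 was at 8.82 and 10.3 CPM in wild-type TAC and 7.84 to 8.87 CPM in knockout TAC. Pdgfra, a fibroblast receptor, was at 67.9 and 71.1 against 56.4 to 62.4 CPM. In 7 of the 17 markers all 4 knockout TAC libraries lay below both wild-type TAC libraries, and in 3 above both (10.8% and 11.0% of all genes). The markers' knockout minus wild-type difference had a median of -0.24 in sham and -0.215 under TAC. The matricellular sums were 3414 and 4644 CPM in wild-type and 1998 to 2510 CPM in knockout TAC libraries. The part of fibroblast number in the matrix result was not tested.

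Endothelial and smooth muscle markers leaned the other way. The difference was above 0 (49.2% of all genes) in 15 of 18 endothelial markers, with a median of 0.19 (0.17 without the library labelled wild-type TAC 1). Among them 0 passed in wild type and 4 rose in knockout. The list's knockout minus wild-type difference had a median of -0.22 in sham and -0.03 under TAC, so knockout was lower already without TAC. Eng, a TGF-beta co-receptor of endothelium, was at 206 to 300 CPM in wild-type sham and 169 to 227 CPM in knockout sham, and at 190 and 245 against 198 to 256 CPM under TAC. The genotypes thus overlapped under TAC, and the difference of 0.53 ± 0.20 (edgeR adjusted p = 0.638, and 0.35 without the library labelled wild-type TAC 1) came with a lower knockout sham range. Smooth muscle and pericyte markers were above 0 in 12 of 14 genes with a median of 0.27 (0.29 without that library). Their knockout minus wild-type difference had a log2 median of -0.36 in sham and -0.04 under TAC. Of these, 1 rose and 2 fell in wild type, and 1 rose and 1 fell in knockout.

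Of 37 genes for fatty acid use, which adult heart muscle relies on, 17 fell in wild type and 9 in knockout, and none rose. The difference passed the threshold in 0 of them. The difference was above 0 in 32 of 37, with a median effect of -0.38 in wild type and -0.20 in knockout. In 22 of the 37 all 4 knockout TAC libraries lay above both wild-type TAC libraries. The same held for 11.0% of all genes and for 472 of the 830 genes lowered in wild type. The median difference of 0.17 was 0.07 without the library labelled wild-type TAC 1 and 0.26 without wild-type TAC 2. Over the list, the levels relative to sham were -0.60 and -0.25 in the wild-type TAC libraries and -0.33 to -0.17 in the knockout TAC libraries, so wild-type TAC 2 lay inside the knockout range.

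Dgat2, which makes triglyceride, was at 426 to 485 CPM in wild-type sham, 274 and 292 CPM in wild-type TAC, 399 to 473 CPM in knockout sham and 410, 389, 368 and 339 CPM in knockout TAC. It fell 1.61-fold in wild type, its knockout effect did not pass, and the difference was 0.49 ± 0.12 (edgeR adjusted p = 0.303, and 0.44 without the library labelled wild-type TAC 1). Acot1, an acyl-CoA thioesterase, was at 1.92 and 5.71 CPM in wild-type TAC and 6.34 to 8.86 CPM in knockout TAC. Its close paralog Acot2 could share reads with it. Eci1, an enzyme for unsaturated fats, was at 194 and 213 CPM in wild-type TAC and 235 to 302 CPM in knockout TAC, and its difference was 0.39 ± 0.13 (0.32 without the library labelled wild-type TAC 1). Regulators of these genes leaned the same way, with a median difference of 0.18 over 18 genes (0.11 without the library labelled wild-type TAC 1). Of those 3 fell in wild type and 2 in knockout. Ppargc1a, a coactivator of mitochondrial genes, was at 185 and 220 CPM in wild-type TAC and at 447, 371, 318 and 263 CPM in knockout TAC. All knockout libraries were above both wild-type ones (log2 0.79, edgeR adjusted p = 0.0218), while the difference in TAC effect was 0.53 ± 0.20 (adjusted p = 0.635, and 0.41 without the library labelled wild-type TAC 1).

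Genes of respiration, the TCA cycle and glucose use had smaller median differences. Respiratory chain genes encoded in the nucleus had a median difference of 0.01 over 37 genes, with 0 calls in wild type and 1 fall in knockout. In 10 of them all 4 knockout TAC libraries lay above both wild-type TAC libraries (11.0% of all genes). Their knockout minus wild-type difference had a median of 0.07 in sham and 0.09 under TAC, so knockout was higher already without TAC. Genes of the TCA cycle and pyruvate use had a median of 0.09 over 26 genes, with 4 falls in wild type and 0 in knockout. The difference was above 0 in 21 of these, and in 13 the knockout TAC libraries all lay above both wild-type ones. Glucose genes had a median of 0.08 over 24 genes, with 6 such genes. The median knockout minus wild-type difference in sham and under TAC was 0.05 and 0.15 for TCA genes. For glucose genes it was -0.03 and 0.05. Without the library labelled wild-type TAC 1 the 3 medians of the difference in TAC effect were 0.05, 0.08 and 0.09. Slc2a4, the insulin-regulated glucose transporter, was at 344 and 404 CPM in wild-type TAC and at 397 to 480 CPM in knockout TAC, which overlapped.

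Ion channel and calcium genes set the heartbeat. Of 28 tested, 13 fell and 1 rose in wild type, 11 fell in knockout, and 6 responses met the rule for kept: Atp2a2, Cacna1c, Cacnb2, Kcnd2, Kcnj5 and Ryr2. The difference was above 0 in 19 of 28 genes with a median of 0.09 (0.08 without the library labelled wild-type TAC 1). In 11 of the 28 all 4 knockout TAC libraries lay above both wild-type TAC libraries (11.0% of all genes). The list's knockout minus wild-type difference had a median of 0.09 in sham and 0.19 under TAC. Atp2a2 encodes the pump that returns calcium to its store in muscle. It was at 7120 to 7854 CPM in wild-type sham, 6073 and 6404 CPM in wild-type TAC, 8121 to 8797 CPM in knockout sham, and 7262, 7391, 7369 and 6572 CPM in knockout TAC. It fell 1.19-fold in wild type and 1.20-fold in knockout, from a higher range in knockout, with a 95% interval of the difference from -0.22 to 0.22. Its wild-type fall, which the rule for kept needs, only just passed the threshold (edgeR adjusted p = 0.04995). The wild-type log2 effect was -0.26, and -0.22 without the library labelled wild-type TAC 1. Kcnv2, a modifier of potassium channels, gave the smallest p in the list. It fell 4.32-fold in wild type, to 3.68 and 5.71 CPM, and 2.07-fold in knockout, to 14.3, 12.9, 12.4 and 8.26 CPM, with a difference of 1.06 ± 0.33 (edgeR adjusted p = 0.521, and 0.78 without the library labelled wild-type TAC 1).

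Macrophage and complement genes rose to a like median in both genotypes. Of 25 tested, 13 rose in wild type (6.91% of all genes) and 12 in knockout (6.73%). None fell, and 8 were called in both. The median effect was 0.64 in wild type and 0.58 in knockout. The median difference was -0.06, and 0.09 when the library labelled wild-type TAC 1 was left out. C1qa, C1qb and C1qc, which form the recognition unit of complement, and Ly86 met the rule for kept. Ptprc, which encodes the leukocyte antigen CD45, was at 18.6 and 22.5 CPM in wild-type TAC and 17.4, 16.4, 13.4 and 20.6 CPM in knockout TAC, with a difference of -0.51 ± 0.20 (95% interval -0.94 to -0.08, edgeR adjusted p = 0.68, and -0.64 without the library labelled wild-type TAC 1). Interferon-stimulated genes had medians of 0.34 and 0.33, with 3 rises in wild type, 6 in knockout and 0 genes called in both. Their median difference of -0.02 was -0.18 without the library labelled wild-type TAC 1 and 0.20 without wild-type TAC 2.

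Stress and division genes depended on single wild-type libraries. In the integrated stress response, which reprograms amino acid use, 10 of 19 genes rose in wild type (6.91% of all genes) and 1 fell. In knockout 8 rose (6.73%) and 1 fell. The median difference was -0.18. It was -0.41 without the library labelled wild-type TAC 1 and turned to 0.24 without wild-type TAC 2. Mthfd2, a mitochondrial folate enzyme, was at 6.83 CPM in the former and 34.8 CPM in the latter library, against 5.27 to 11.4 CPM in knockout TAC. Its difference was -1.57 ± 0.59, and 0.04 without wild-type TAC 2. Gdf15, a secreted stress signal, was high in both wild-type libraries, at 15.5 and 17.7 CPM, against 15.0, 5.95, 7.99 and 6.21 CPM in knockout TAC. In cell cycle genes, 9 of 35 rose in wild type (6.91% of all genes) and 1 fell. In knockout 2 rose (6.73%) and 1 fell. Their median difference of -0.35 became -0.04 without the library labelled wild-type TAC 1.

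Splicing genes, among them those of the SR proteins that CLK kinases phosphorylate, showed no difference that passed the threshold. Among 15 SR proteins, 0 passed in wild type and 5 fell in knockout, and the median difference was -0.05. It was -0.23 without the library labelled wild-type TAC 1 and 0.19 without wild-type TAC 2. Srsf5, an SR protein, was at 279 and 377 CPM in wild-type TAC and 308, 249.4, 213 and 339 CPM in knockout TAC, where the groups overlapped. It fell in knockout (log2 -0.42, edgeR adjusted p = 0.0389), and the difference was -0.22 ± 0.20 with a 95% interval from -0.64 to 0.20. Leaving out the library labelled wild-type TAC 1 gave -0.42. CLK and SRPK kinases had a median difference of -0.04 over 11 genes (-0.20 without the library labelled wild-type TAC 1 and 0.18 without wild-type TAC 2), with 0 calls in wild type and 1 fall in knockout. Clk3 itself did not pass under TAC in either genotype, and its difference was 0.03 ± 0.21. It was -0.30 without the library labelled wild-type TAC 1 and 0.47 without wild-type TAC 2, where the wild-type effect passed (-0.64, edgeR adjusted p = 0.0149). Cardiac splicing regulators had 2 falls among 20 genes in each genotype and a median difference of -0.0006. Gene counts do not measure the splicing these proteins carry out.

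Kept responses covered several of the classes above. The 6 coding genes with the largest effects in both genotypes among them were Adamts7, Ppip5k2, Etfbkmt, Ston2, Marcksl1 and Fxyd5. Adamts7, a metalloprotease, fell from 43.7 to 57.5 CPM to 19.1 and 25.9 CPM in wild type and from 38.6 to 53.4 CPM to 20.04, 26.3, 17.8 and 26.8 CPM in knockout. The TAC groups overlapped fully. Its fall was 2.21-fold in wild type and 2.12-fold in knockout, with a 95% interval of the difference from -0.45 to 0.57. Ppip5k2, an inositol pyrophosphate kinase, fell 2.25-fold and 1.93-fold. Its knockout TAC libraries (186 to 213 CPM) were above the wild-type ones (117 and 157 CPM), as its knockout sham libraries (341 to 449 CPM) were above the wild-type range of 288 to 336 CPM. Marcksl1, an actin-binding protein, rose 2.01-fold and 1.96-fold, and Fxyd5, a modulator of the sodium pump, 1.77-fold and 1.91-fold. Etfbkmt, a mitochondrial lysine methyltransferase, fell 1.86-fold and 1.88-fold, and Ston2, an endocytic adaptor, 1.84-fold and 1.85-fold. Without the library labelled wild-type TAC 1, kept responses numbered 112.

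**Figure D5:**
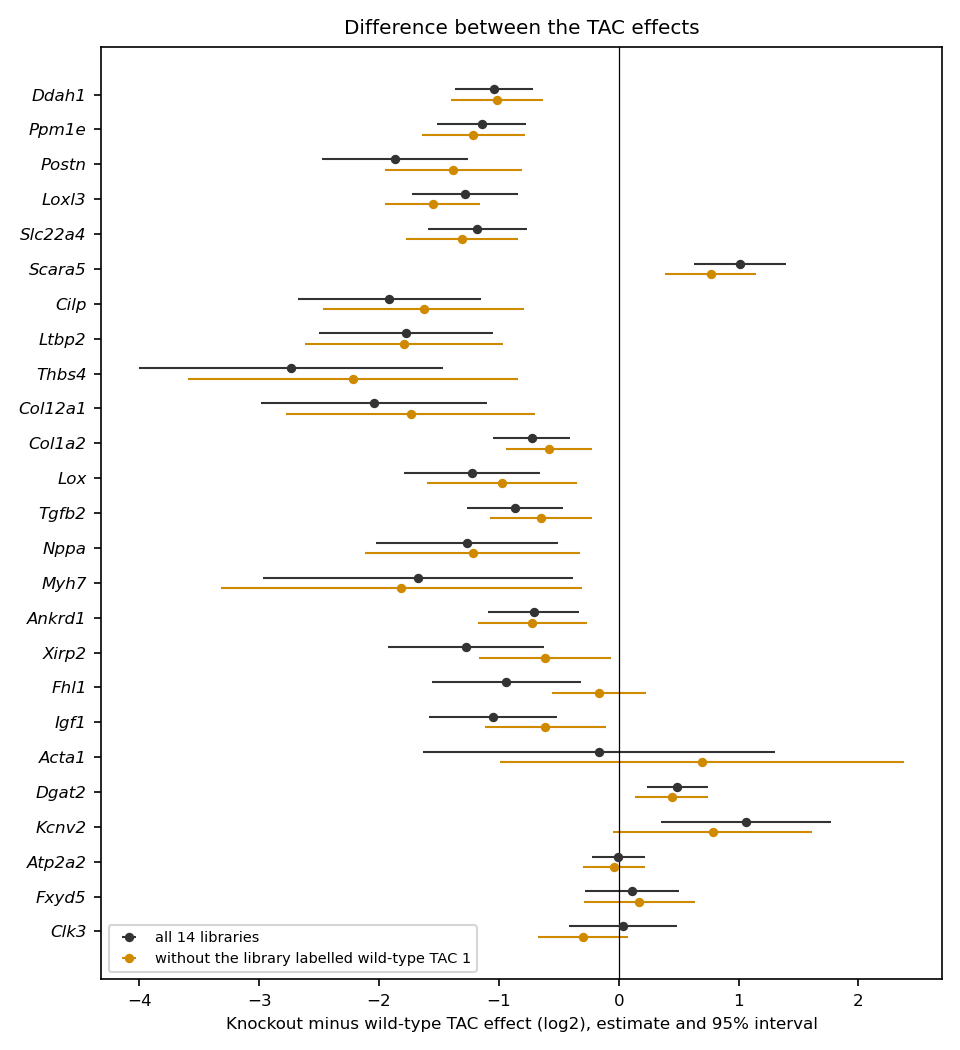
Knockout minus wild-type TAC effect on the log2 scale with its 95% interval for 25 genes, from all 14 libraries (dark) and without the library labelled wild-type TAC 1 (amber). Ddah1 moves from -1.04 to -1.02 and Ppm1e from -1.14 to -1.21, while Fhl1 moves from -0.94 to -0.17 and Acta1 changes sign.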

How the data were processed

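The series deposited 1 table per library. Per the file headers, the authors' tables hold whole-number read counts per gene, not normalised, with separate columns for coding and untranslated parts. Per the submitters' processing notes, the tools were bcl2fastq 2.17.1.14, STAR 2.4.2a and Picard 2.10.3, with the builds mm10 and GRCm38, without roles. Which annotation and which strand setting the counting used is not given in the sources used here. Genes with an overlapping antisense partner are therefore uncertain. Per the labels' protocols, poly(A) RNA was used for strand-specific libraries amplified by PCR, without molecular identifiers named, so counting error is a lower limit of the technical error.

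From these counts, rows that name no gene were left out of library sizes, and genes were kept by edgeR's filterByExpr with a minimum count of 10, which left 15651 genes tested and 36261 not tested. Names and positions came from GENCODE M21, in which 51719 of 51912 identifiers were found. One edgeR 4.0.16 quasi-likelihood fit (R 4.3.3) with TMM scaling and 1 coefficient per group used all 14 libraries, with a biological coefficient of variation of 11.8%, and gave the TAC effect in each genotype, the difference between them, and the genotype differences in sham and TAC. P-values were adjusted by Benjamini-Hochberg over all genes tested. The SE is the log2 value divided by the square root of F, and the 95% interval uses the t quantile. A response was blunted where the wild-type effect and the difference passed an adjusted p of 0.05 with opposite signs, larger where the knockout effect and the difference passed with the same sign, and kept as defined in the results. CPM values use TMM-scaled library sizes. The test was first run on simulated counts with the same groups and library sizes, the same dispersion for every gene and effects in knockout TAC alone. Those counts held no TAC effect in wild type and no sham difference, so they do not show how the test behaves on these data.

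Gene lists and members were chosen with earlier results of these data known, so lists are described by counts and medians with no test. Named genes were Clk3 and 7 hypertrophy genes, every blunted coding gene, the 6 kept coding genes with the largest smaller effect at a CPM of at least 1, and up to 3 members of smallest p from each list described. Members named only for meeting the rule for kept, Slc22a4, Frem1, Arntl and the 3 pseudogenes were named after their values were seen. The fibroblast markers Tcf21 and Pdgfra and the atrial markers Myl7, Sln and Myl4 were picked outside these rules. Alternatives were other scalings, DESeq2 1.42.0, no filter, a minimum count of 50, a robust fit, age as a covariate, 10-week libraries alone, coding counts alone, the share of reads outside features or a clock gene score as a covariate, and each library left out. The clock score is the mean log2 CPM of Arntl, Npas2 and Clock minus that of Dbp, Per3, Nr1d1 and Tef. Leaving out knockout sham 4 and knockout TAC 3 together was added after seeing the data. Promoter sequences are from RefSeq on GRCm38.p6.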

Additional observations from a re-analysis of the deposited data

Results flagged for a closer look

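The difference between the TAC effects passed its own test for Ddah1 (-1.04), Ppm1e (-1.14) and Postn (-1.87) on the log2 scale, in each case with the smaller rise in knockout. The values of each library are given above.

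In 19 of 261 groups of 4 libraries checked over 87 genes, 1 library stood apart from the other 3 by more than Dixon's limit. By chance this holds for about 1 in 20 groups, or 13.1 groups. The genes checked include some named after their values were seen, such as Arntl, so comparing these counts is no test. Knockout sham 4 was the library apart for Arntl (24.3 CPM), Cry1 (17.7 CPM), Fxyd5 (16.1 CPM), Gdf15 (2.12 CPM), Eng (227 CPM) and Mylk (75.7 CPM), and knockout TAC 3 for Arntl (9.02 CPM) and Col12a1 (6.63 CPM). Arntl and Cry1 belong to the circadian clock. In the clock score knockout sham 4 was at -1.71 where the other sham libraries lay between -3.94 and -3.49, and knockout TAC 3 was at -3.02 where the other TAC libraries lay between -1.83 and -1.41. The part of collection time was not tested.

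The remaining cases were spread over other libraries. They were Atp2a2 (6572 CPM), Psat1 (4.62 CPM) and Dyrk1a (97.0 CPM) in knockout TAC 4, Casq2 in knockout sham 3 (1455 CPM) and knockout TAC 2 (1610 CPM), Marcksl1 in knockout sham 1 (3.72 CPM), Cilp in knockout sham 2 (9.57 CPM), Cenpa in knockout TAC 1 (61.9 CPM), Hrc in wild-type sham 1 (1272 CPM), and Col1a2 (228 CPM) and Psat1 (3.18 CPM) in wild-type sham 4.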

How the results depend on the processing

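The count of genes whose TAC effect differed between genotypes was 3 with either other scaling and with a minimum count of 50, 2 with a robust fit, 37 with the DESeq2 Wald test and 66 with no filter, all 66 of which were among the genes tested. It was 8 with the outside-feature share as a covariate, 1 with the clock score and 1 without knockout sham 4 and knockout TAC 3 together (in both Ppm1e), and 0 with age as a covariate, with 10-week libraries alone and with coding counts alone, where edgeR gave 973, 904 and 689 genes at an unadjusted p under 0.05. Leaving out 1 library gave 0 to 32 genes, with 0 (842 to 961 at an unadjusted p) without wild-type sham 2, 3 or 4, knockout sham 1, 2 or 3, or knockout TAC 1 or 2. Blunted responses numbered 36 with DESeq2, 63 with no filter, 0 under the 3 settings just named, 1 with the clock score, 1 without those 2 knockout libraries, and 0 to 31 with 1 library left out. Larger responses numbered 1 with DESeq2, 2 with no filter and 0 to 0 with 1 library left out. Wild-type calls were 1158 with age, 938 with 10-week libraries, 1169 with coding counts, 596 with the outside-feature share and 350 with the clock score (512 to 2224 with 1 library left out). Knockout calls under the same settings were 588, 15, 1005, 0 and 128 (797 to 2306), and kept responses 152, 2, 225, 0 and 21 (112 to 482). The outside-feature fit thus gave no knockout calls and no median ratio over them. The share of outside reads and the clock score differ between sham and TAC libraries, so these covariates and the surgery cannot be told apart. The median ratio stayed between 0.816 and 1.17 over knockout calls and between 0.417 and 0.615 over wild-type calls with 1 library left out. For the other changes the cause was not tested. No paired analysis was possible because the labels carry no replicate numbers, and those used here were given in accession order.

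Estimates that changed sign, most of them near 0 but also Mthfd2 (-1.57) and Gm9625 (-3.60), were the following. With 10-week libraries alone these were Acta1 (0.46), Atp2a2 (0.0619), Etfbkmt (0.25), Ston2 (0.103), Fxyd5 (-0.0838) and Srpk3 (-0.0097), and with no filter Atp2a2 (0.0182), Etfbkmt (0.0056) and Ston2 (0.0164). The outside-feature share turned Etfbkmt (0.13) and Srsf11 (0.0701), the clock score Ston2 (0.0245) and Arntl (0.25), and leaving out both knockout libraries Acta1 (0.063), Ston2 (0.0253) and Arntl (0.58). With 1 library left out the difference ran from -0.70 to 0.69 for Acta1, -0.14 to 0.30 for Adamts7, -0.91 to 0.33 for Arntl, -0.0385 to 0.036 for Atp2a2, -0.30 to 0.47 for Clk3, -0.18 to 0.18 for Etfbkmt, -4.56 to 0.52 for Gm9625, -0.16 to 0.0855 for Marcksl1, -2.31 to 0.0376 for Mthfd2, -0.0524 to 0.45 for Myh6, -0.33 to 0.12 for Srpk2, -0.41 to 0.19 for Srsf11, -0.42 to 0.0159 for Srsf5, -0.37 to 0.10 for Srsf6 and -0.19 to 0.21 for Ston2.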

Other observations

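Immediate early genes, which answer fast to a stimulus, had one of the highest median differences among lists with at least 10 genes tested, close to that of smooth muscle markers. Of 24 tested, 4 rose in wild type and 6 in knockout, and the median effect was 0.12 in wild type and 0.43 in knockout, with a median difference of 0.27 (0.23 without the library labelled wild-type TAC 1). Knockout sham libraries alone spread from -0.42 to 0.45 around their mean for this list. Tendon and cartilage genes showed 9 rises in wild type and 7 in knockout among 12 tested, with medians of 1.83 and 1.18. Their median difference of -0.51 was -0.24 without the library labelled wild-type TAC 1.

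Frem1, a basement membrane gene, reached 9.36 CPM for the library labelled wild-type TAC 1, against 1.85 CPM in wild-type TAC 2 and 0.744 to 0.978 CPM in knockout TAC libraries, with a difference of -3.64 ± 0.82 (edgeR adjusted p = 0.245). Adipocyte markers, of which 4 were tested, gave a median difference of -2.37, which was -3.31 without the library labelled wild-type TAC 1 and 1.51 without wild-type TAC 2, and their summed level was 39.52 and 43.64 CPM in wild-type TAC and 32.04 to 39.45 CPM in knockout TAC libraries. Neutrophil markers were at most 5.55 CPM in sum in any library. The pseudogenes Gm8730, Gm14165 and Gm9625 had differences of -4.50, -5.01 and -3.60 that became -0.11, -0.51 and 0.52 without the library labelled wild-type TAC 1.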
